A study of Arabidopsis thaliana with 6 samples.

Results

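TIR-domain immune receptor genes of Arabidopsis thaliana were followed across mutants of CAMTA3 and the wild type. The genes were chosen by locus from a list of 55, by a rule that used no measured value, although the list itself was drawn up with earlier results of these data known. Of these, 43 had a probe set whose annotation named 1 gene only, out of 13286 loci measured in all. Each of the 43 had a single such probe set. The 12 listed genes not analysed here include AT1G17610 (CHS1), WRR4, RLM1, RLM3 and AT4G11170 (RMG1), and 2 of the 12, AT1G27170 and AT1G27180, shared 1 probe set that names both.

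The plants were 3 weeks old and carried the mutant allele camta3-1, the mutant allele camta3-2 or no camta3 mutation (wild type). Each genotype was measured on 2 Affymetrix arrays that the labels call biological replicates, 6 arrays in all. The sources used here give neither the kind of lesion in each allele nor the accession and tissue of the plants. Values are log2 expression values made with RMA, so a difference of 1 is a doubling, and array medians lay between 6.18 and 6.26. The targeted CAMTA3 transcript was not analysed here and could not serve as a check of the labels. In bulk samples such as these, fewer cells of a type and less RNA per cell cannot be told apart.

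The transcription factor CAMTA3 binds calmodulin and is known to hold back salicylic acid-dependent immunity. Receptors of the TIR class are intracellular sensors of pathogen effectors. A full-length receptor joins a TIR domain to a nucleotide-binding domain (NBS) and leucine-rich repeats (LRR), while shorter relatives hold a TIR domain alone or with an NBS. TIR domains act as enzymes that cleave NAD, and their products are sensed by the lipase-like protein EDS1 with its partners PAD4 and SAG101, which engage the helper receptors ADR1 and NRG1. Overactive TIR receptors cause autoimmunity with stunted growth. The receptors DSC1 and DSC2 have a known tie to the mutants studied here, since dominant-negative forms of either suppress the autoimmunity of camta3 plants.

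The first comparison set the mean of both mutant alleles against wild type. Of the 43 measured TIR-domain genes, 6 rose and 0 fell at an adjusted p under 0.05 (limma, adjusted over all probe sets), while 1.15% of all probe sets rose and 0.255% fell. The genes that rose were AT3G04210 (TN13), AT1G66090 (TN3), AT5G11250 (BNT1), AT5G36930, AT4G36150 and AT1G17600 (SOC3). At an unadjusted p under 0.05, 16 genes were higher and 1 was lower, against 5.31% and 8.08% of all probe sets. For 17 genes every one of the 4 mutant arrays was higher than both wild-type arrays, for 4 genes every one was lower, and for 22 the genotypes overlapped. Over all probe sets, 7.89% lay above and 15.8% below in this way. The median log2 fold change was 0.08 for the 43 genes and -0.05 for all probe sets, with 67.4% and 37.4% of values above 0. In fits without single arrays, the log2 fold changes of the 6 genes ran from 0.66 to 1.66. Such fits have fewer arrays for every probe set, and the share of all probe sets that passed in them is not given here. A fall in the count is therefore not read as a trait of these genes. The count rested on few arrays. It was 0 when either wild-type array was left out (limma). Without wild-type replicate 1, 8 genes were higher and 3 lower at an unadjusted p under 0.05, against 3.71% and 4.9% of all probe sets. Without replicate 2, 13 were higher and 0 lower, against 3.79% and 4.76%. It was 4 without camta3-1 replicate 1, 9 without camta3-1 replicate 2, 2 without camta3-2 replicate 1 and 3 without camta3-2 replicate 2.

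**Figure D1:**
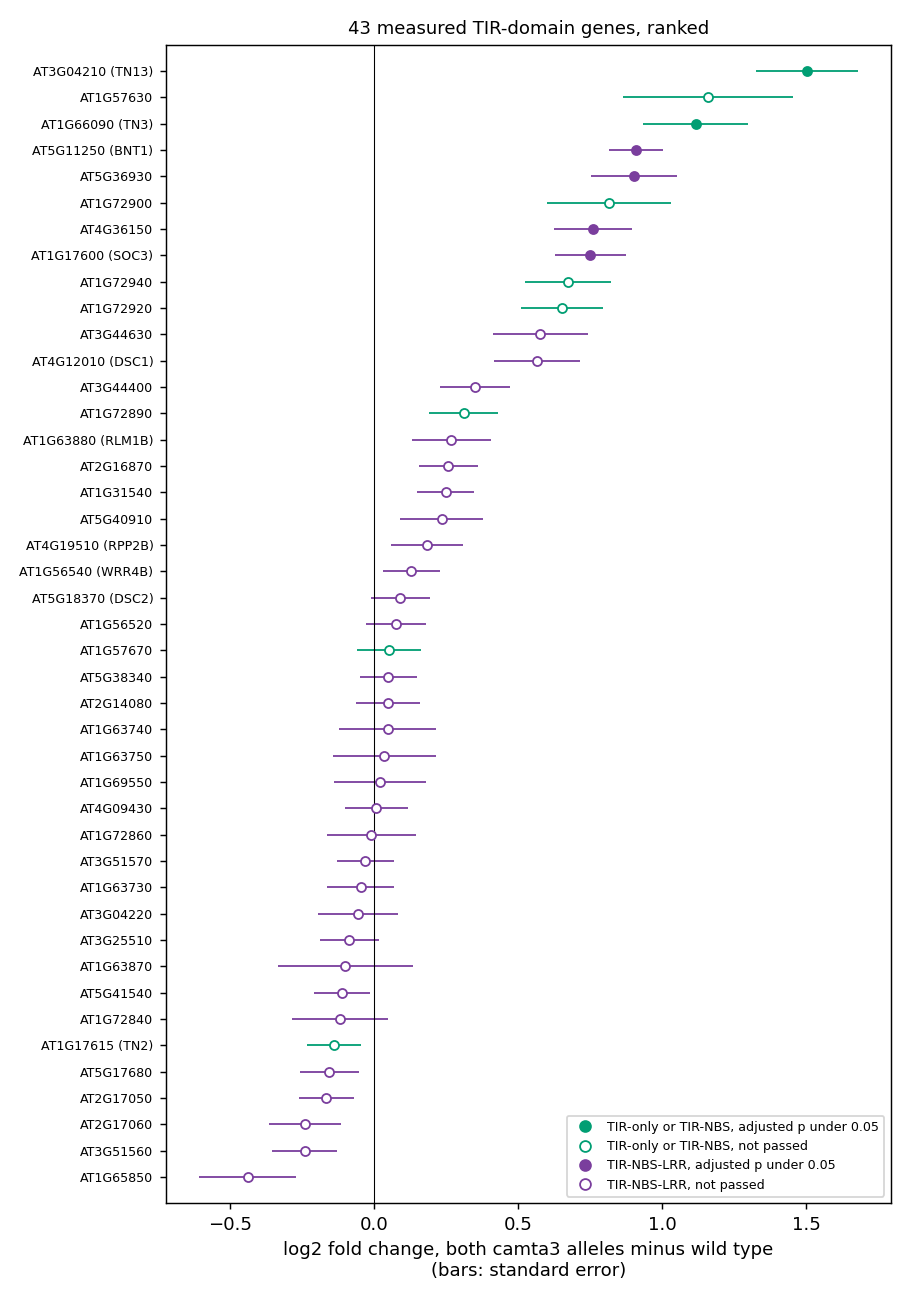
Log2 fold change of each of the 43 measured TIR-domain genes for both camta3 alleles averaged, minus wild type, with its standard error as a bar. Filled points passed an adjusted p of 0.05 and colours separate genes with and without leucine-rich repeats, from AT3G04210 at 1.50 down to AT1G65850 at -0.44.

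The largest change among the 43 genes was in a gene without leucine-rich repeats. AT3G04210 encodes TN13, a TIR-NBS protein known to bind the nuclear import receptor MOS6. Its log2 values were 9.45 and 8.83 in camta3-1, 9.06 and 9.0 in camta3-2, and 7.45 and 7.72 in wild type. All mutant arrays were above wild type, with a gap wider than the spread within any group. The log2 fold change was 1.50 (standard error 0.18, adjusted p = 0.0105), a 2.83-fold rise. The second gene of this kind that rose, AT1G66090, encodes the TIR-NBS protein TN3. It stood at 5.52 and 4.99 in camta3-1, at 5.84 and 5.36 in camta3-2, and at 4.33 and 4.29 in wild type. Its wild-type arrays were nearly equal, while the replicates of each mutant allele lay farther apart, all above wild type. The log2 fold change was 1.12 (standard error 0.18, adjusted p = 0.0354).

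AT1G57630, a TIR-domain gene with no NBS, had the second largest difference of the 43 genes but did not pass. Its values were 6.30 and 5.19 in camta3-1, 6.37 and 5.90 in camta3-2, and 4.62 and 4.94 in wild type. The lower camta3-1 array lay close to the higher wild-type array. The log2 fold change was 1.16 (standard error 0.29, adjusted p = 0.145). It passed without camta3-1 replicate 2 (adjusted p = 0.0105), and its adjusted p for this comparison ran over all alternatives from 0.0105 to 0.58.

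Among full-length TIR-NBS-LRR genes, AT5G11250 had the smallest p of all 43. It encodes BNT1 (BURNOUT1), a receptor known from work on stress hormone balance. Its values were 6.90 and 6.87 in camta3-1, 6.68 and 6.79 in camta3-2, and 5.87 and 5.93 in wild type. The replicates of every genotype lay close together, and all mutant arrays were well above wild type. The log2 fold change was 0.91 (standard error 0.09, adjusted p = 0.0057), a 1.88-fold rise. With each of the 4 mutant arrays left out in turn it passed, and without wild type replicate 1 or 2 it did not (adjusted p = 0.122 and 0.0842), as held for AT3G04210 (adjusted p = 0.185 and 0.0976).

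AT5G36930, a TIR-NBS-LRR gene, had values of 7.29 and 6.86 in camta3-1, 7.17 and 6.90 in camta3-2, and 6.05 and 6.25 in wild type. All mutant arrays were higher, and the rise was 1.87-fold (standard error 0.15 on the log2 scale, adjusted p = 0.0373). AT4G36150, of the same class, stood at 6.28 and 5.94 in camta3-1, 6.02 and 5.81 in camta3-2, and 5.35 and 5.15 in wild type. It was the weakest of the 6 calls, with a log2 fold change of 0.76 and a standard error of 0.14 (adjusted p = 0.0471). Without camta3-1 replicate 1, AT4G36150 and AT1G17600 did not pass (adjusted p = 0.0766 and 0.0543). Without camta3-2 replicate 1, only AT3G04210 and AT5G11250 of the 6 passed, and without camta3-2 replicate 2 these and AT1G66090 passed.

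AT1G17600 encodes SOC3, a TIR-NBS-LRR receptor that works with the short TIR-NBS proteins encoded beside it, CHS1 and TN2. It had values of 5.55 and 5.21 in camta3-1, 4.82 and 4.76 in camta3-2, and 4.25 and 4.42 in wild type. The 3 genotypes did not overlap, with camta3-2 between camta3-1 and wild type. For the mean of both alleles the log2 fold change was 0.75 (standard error 0.12, adjusted p = 0.0364). Its neighbour AT1G17615, which encodes TN2, was near the bottom of the array's range at 3.44, 3.36, 3.46 and 3.46 in the mutants and 3.63 and 3.51 in wild type. The log2 fold change of TN2 was -0.14 (adjusted p = 0.592), with a 95% interval from -0.36 to 0.08.

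The pair linked to camta3 autoimmunity was measured as well. AT4G12010, which encodes DSC1, had values of 6.57 and 6.26 in camta3-1, 6.47 and 6.04 in camta3-2, and 5.72 and 5.82 in wild type. Every mutant array lay above both wild-type arrays. The log2 fold change of 0.56 (standard error 0.15) did not pass over all probe sets (unadjusted p = 0.00625, adjusted p = 0.16), nor did it pass 0.05 under any of the 12 alternatives run for it. AT5G18370, which encodes DSC2, had values of 4.98 and 4.97 in camta3-1, 4.76 and 4.83 in camta3-2, and 4.90 and 4.68 in wild type. The genotypes overlapped, and camta3-2 and wild type had the same mean, 4.79. The DSC2 log2 fold change was 0.09 (adjusted p = 0.772) with a 95% interval from -0.15 to 0.33. A rise in signal as large as that measured for DSC1 lay outside it. The mean level of DSC2 was low on the array, at 4.85 and so below log2 5.33, while that of DSC1 was 6.15. Signal over background was not measured, so the interval covers the DSC2 signal and does not exclude such a rise of its transcript.

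**Figure D2:**
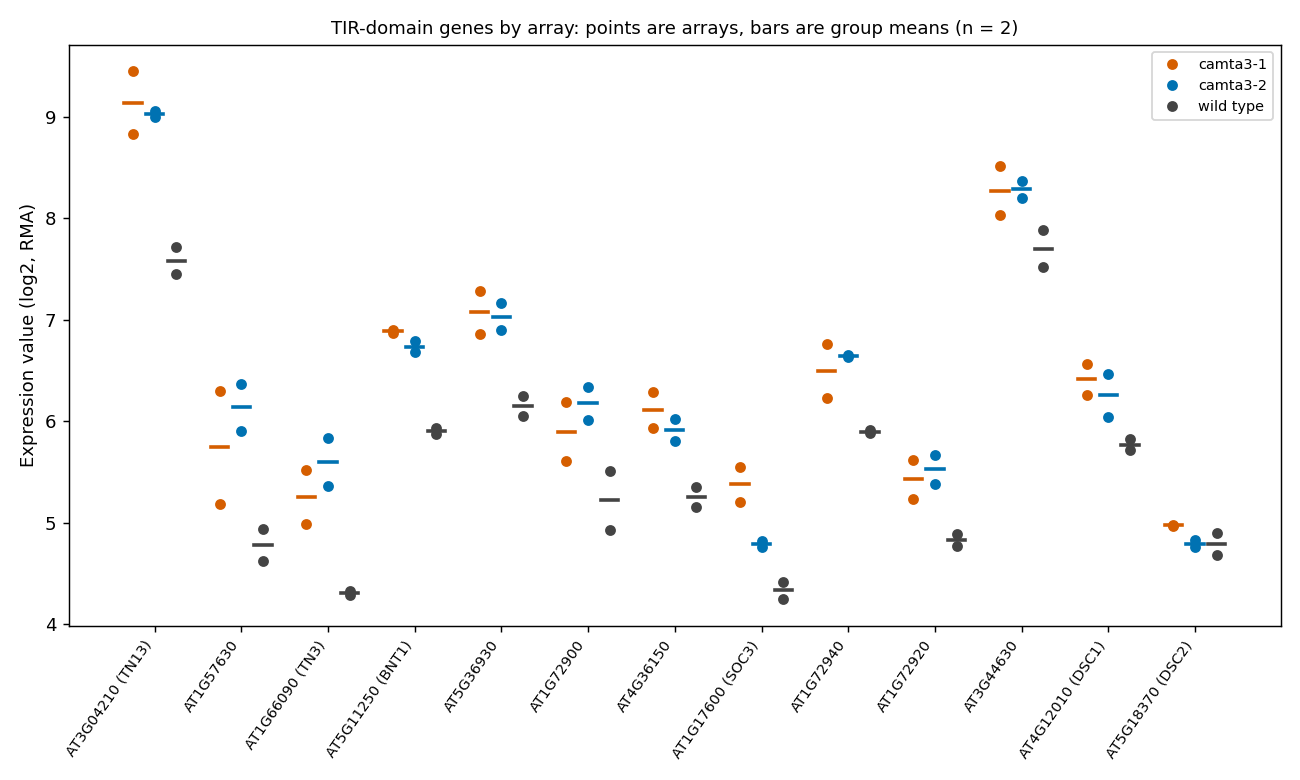
Log2 expression values of 13 TIR-domain genes on each of the 6 arrays, with points for arrays and short bars for group means. In the 12 genes from AT3G04210 to AT4G12010 every mutant array is above both wild-type arrays, while the genotypes overlap in AT5G18370 (DSC2).

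Several TIR-domain genes lie in groups on the chromosomes, and members of a group did not share a pattern throughout. The chromosome 1 group from AT1G72840 to AT1G72940 had 6 measured genes. Its 4 genes without leucine-rich repeats were AT1G72890, AT1G72900, AT1G72920 and AT1G72940. All had every mutant array above wild type, as did 7.89% of all probe sets. Their log2 fold changes were 0.31, 0.82, 0.65 and 0.67, in that order. None of the 4 passed over all probe sets, and the smallest adjusted p was 0.0925, for AT1G72920. The 2 TIR-NBS-LRR genes of the group, AT1G72840 and AT1G72860, had log2 fold changes of -0.12 and -0.01, with arrays that overlapped. The signals of these 2 were low on the array, with means of 4.13 and 4.03. Both lay below the 40th percentile of all probe sets (5.33), as did AT1G72920 at 5.26. Of all probe sets below that percentile, 4.58% had every mutant array above wild type. A difference within the group was not tested.

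AT1G72900 had the largest difference of that group and also the widest wild-type spread. It stood at 6.19 and 5.61 in camta3-1, 6.33 and 6.02 in camta3-2, and 4.93 and 5.51 in wild type (adjusted p = 0.16). AT1G72940 was tighter, at 6.77 and 6.23 in camta3-1, 6.64 and 6.66 in camta3-2, and 5.92 and 5.88 in wild type (adjusted p = 0.0989). AT1G72920 stood at 5.62 and 5.24, 5.38 and 5.67, and 4.89 and 4.77 in the same order. For the mean of both alleles, AT1G72940 and AT1G72920 each passed without camta3-1 replicate 2 (adjusted p = 0.0135 and 0.0409) and under no other alternative run at an adjusted p of 0.05.

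**Figure D3:**
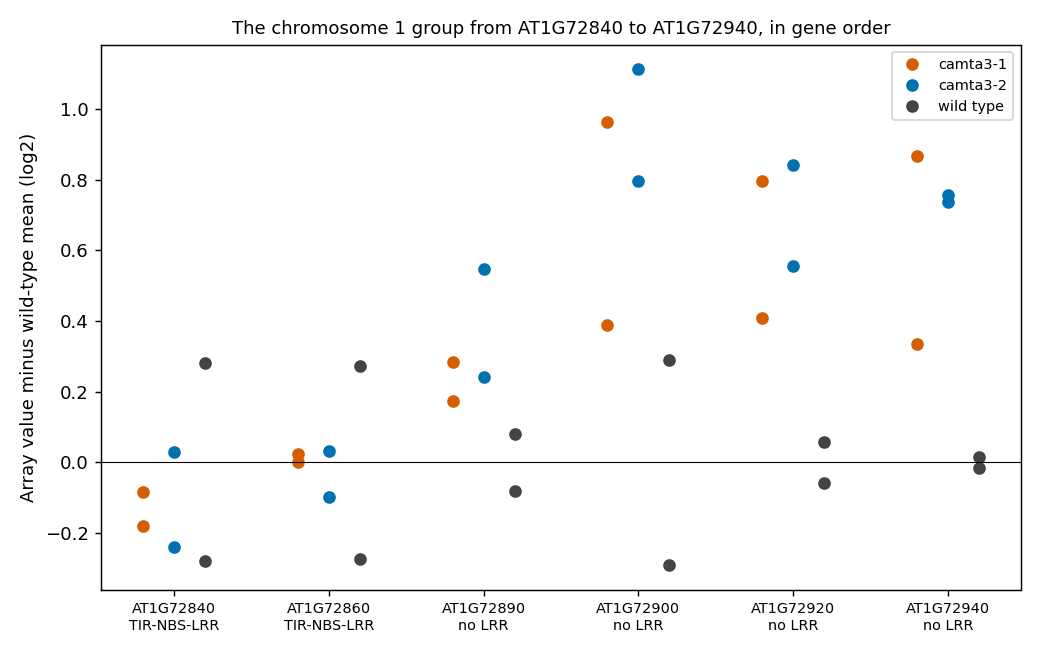
Each array's log2 value minus the wild-type mean of the same gene, for the 6 measured genes of the chromosome 1 group in gene order. The mutant arrays of the 4 genes without leucine-rich repeats are all above wild type, and those of AT1G72840 and AT1G72860 lie within the wild-type range.

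In the RPP1 region of chromosome 3, where receptors against downy mildew are encoded, AT3G44630 and AT3G44400 both had mutant arrays above wild type without passing. AT3G44630 stood at 8.51 and 8.03 in camta3-1, 8.37 and 8.20 in camta3-2, and 7.52 and 7.88 in wild type, a log2 fold change of 0.58 (adjusted p = 0.191). AT3G44400 had 0.35 (adjusted p = 0.274). Next to TN13, the TIR-NBS-LRR gene AT3G04220 stood at -0.06 (log2 fold change, adjusted p = 0.913) with a 95% interval from -0.38 to 0.27, which lies below the value of TN13. The pairs AT2G17050 with AT2G17060 and AT3G51560 with AT3G51570 had negative values in all 4 genes, from -0.24 to -0.03, and none passed. All 4 were dim, with means from 3.31 to 4.57, below the 40th percentile of all probe sets (5.33). Of all probe sets below it, 30.5% had values above 0, so the shared sign is not read as a pattern of the pairs. The 6 genes that rose had 20 measured neighbours within 3 protein-coding genes on either side, counted once for each. Of these neighbours 0 passed (limma), with log2 fold changes from -0.95 to 0.19 and a smallest adjusted p of 0.155. Over all probe sets 1.15% rose and 0.255% fell, so few or none of 20 genes would pass at these shares. Nothing about the neighbours is read from the count.

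The remaining genes changed little or could not be told from wild type. Of the 31 genes outside the 12 with full values, 0 passed, since every gene that passed is among the 12. At an unadjusted p under 0.05 (limma), 4 were higher and 1 lower. Log2 fold changes of the 31 ran from -0.44 to 0.35. All mutant arrays were above wild type in 5 of them, AT3G44400, AT1G72890, AT1G63880, AT2G16870 and AT1G31540, and below it in 4, AT1G17615, AT5G17680, AT2G17050 and AT1G65850. Over all probe sets 7.89% lay above and 15.8% below, but these 31 were set apart by their p-values, so nothing is read from that comparison. AT1G63880 (RLM1B), which contributes to resistance against the blackleg fungus, had 0.27 (adjusted p = 0.469) at a mean level of 8.10. AT4G19510 (RPP2B), needed for downy mildew resistance, had 0.18 (adjusted p = 0.594) at a mean level of 5.45. AT1G56540 (WRR4B), a white rust resistance gene, had 0.13 (adjusted p = 0.648) at a mean level of 3.57, low on the array. The lowest value was that of AT1G65850, which ran from 3.88 to 4.06 in the 4 mutant arrays and stood at 4.12 and 4.74 in wild type. Its wild-type arrays differed more from each other than the lower one did from the mutants, and the log2 fold change of -0.44 did not pass (adjusted p = 0.32).

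The genes that rose were of both kinds of protein. Of the 9 genes without leucine-rich repeats 2 rose, 8 had values above 0 and the median log2 fold change was 0.67. Of the 34 TIR-NBS-LRR genes 4 rose, 21 had values above 0 and the median was 0.05. Over all probe sets 1.15% rose and 37.4% of values were above 0. A difference between the kinds was not tested, and 4 of the 9 genes without leucine-rich repeats lie in the chromosome 1 group described above. The kinds also differed in signal level. Mean levels were log2 5.33 or higher in 5 of the 9 genes and in 12 of the 34. In these the median log2 fold changes were 0.82 and 0.25. Below that level they were 0.35 for 4 genes and -0.02 for 22, in the same order. These levels are means over all 6 arrays, 4 of them mutant. Of the 17 genes at log2 5.33 or higher, AT1G57630, AT1G72900 and AT4G36150 have wild-type means below it. These 3 reached it only through their mutant arrays, so nothing is read from the medians by level. The part of signal level in the difference was not tested. The wild-type means of the 6 genes that rose ran from 4.31 for AT1G66090 and 4.33 for AT1G17600 to 7.58 for AT3G04210.

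Each allele was next compared with wild type on its own, with both comparisons using the same 2 wild-type arrays. In camta3-1, 3 of 43 genes rose and 0 fell, while 0.805% of all probe sets rose and 0.277% fell. They were AT3G04210 at 1.56 on the log2 scale (adjusted p = 0.0204), AT1G17600 at 1.05 (adjusted p = 0.0235) and AT5G11250 at 0.98 (adjusted p = 0.0111). In camta3-2, 2 of 43 rose and 0 fell, while 0.655% of all probe sets rose and 0.0791% fell. They were AT3G04210 at 1.45 (adjusted p = 0.0323) and AT5G11250 at 0.83 (adjusted p = 0.022). AT1G66090 came close in camta3-2, at 1.29 (adjusted p = 0.0511), and stood at 0.94 in camta3-1 (adjusted p = 0.109). The median log2 fold change of the 43 genes was 0.10 in camta3-1 and 0.13 in camta3-2, against -0.04 and -0.06 for all probe sets.

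These counts also turned on single arrays. The share of all probe sets that passed in fits without an array is not given here. A change in the counts is therefore not read as a trait of the TIR-domain genes. For camta3-1, 1 gene passed without camta3-1 replicate 1, 7 passed without camta3-1 replicate 2 and 0 when either wild-type array was left out (limma). At an unadjusted p under 0.05, 10 genes were then higher and 3 lower without wild-type replicate 1, against 3.72% and 4.77% of all probe sets. Without replicate 2, 12 were higher and 0 lower, against 3.73% and 4.82%. For camta3-2, 0 genes passed when any camta3-2 or wild-type array was left out (limma), with 9 to 14 genes higher and 0 to 1 lower at an unadjusted p under 0.05. Over all probe sets, 3.28% to 5.73% were higher and 4.21% to 8.31% lower in those 4 fits. In a fit of camta3-2 and wild type alone, 6 genes passed in place of 2. The share of all probe sets that passed in it is not given here, so the rise is not read as a trait of TIR-domain genes. Leaving out either camta3-1 array gave the same 6, since a lone array adds nothing to the estimate of the spread. AT1G72940 passed for camta3-2 in these fits (adjusted p = 0.0341).

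Between the alleles, 0 of 43 genes passed (limma), and 0.0044% of all probe sets passed. At an unadjusted p under 0.05, 1 gene was higher and 1 lower in camta3-2, against 2.49% and 3.85% of all probe sets. The gene with the lower value in camta3-2 was AT1G17600 (SOC3), with a log2 difference of -0.59, a 95% interval from -0.92 to -0.26, an unadjusted p of 0.00379 and an adjusted p of 0.778. AT2G16870 had the difference of opposite sign, 0.31 (adjusted p = 0.778). AT1G17600 passed in camta3-1 alone of the single-allele comparisons, where camta3-2 stood at 0.45 (adjusted p = 0.294). The test of the difference over all probe sets was not passed, and its mean level of 4.83 was low on the array. For the other genes that rose, the differences between alleles ran from -0.20 for AT4G36150 to 0.35 for AT1G66090, with adjusted p of 0.822 and above.

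**Figure D4:**
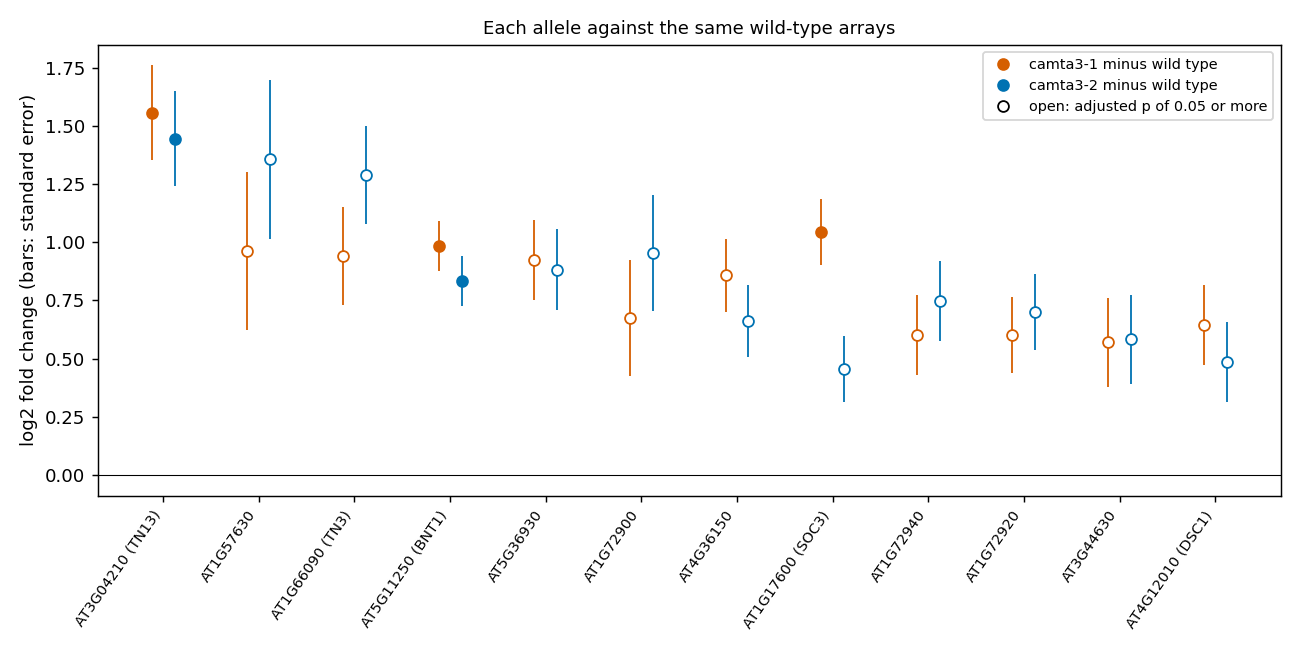
Log2 fold change of camta3-1 and of camta3-2 minus the same wild-type arrays for 12 TIR-domain genes, with standard errors as bars and filled points for an adjusted p under 0.05. AT3G04210 and AT5G11250 are filled in both alleles, and AT1G17600 is filled in camta3-1 at 1.05 and open in camta3-2 at 0.45.

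The replicates of a genotype also differed across the TIR-domain genes. In camta3-1, replicate 1 was above replicate 2 in 33 of 43 genes, with a median difference of 0.10, while 49% of all probe sets were higher in replicate 1. For the 6 genes that rose the median difference in camta3-1 was 0.39. In camta3-2, replicate 1 was higher in 27 of 43 genes, against 59.3% of all probe sets. In wild type, replicate 1 was higher in 18 of 43, with a median difference of -0.10 against -0.01 for all probe sets. Relative to the wild-type mean of each gene, the array medians of the 43 genes were 0.13 and 0.06 in camta3-1, 0.12 and 0.22 in camta3-2, and -0.05 and 0.05 in wild type. The part of this spread between replicates in the counts above was not tested beyond leaving out each array.

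Other genes of the same immune pathway were measured only in part. Of 4 listed genes of the EDS1 family, AT3G48080 and SAG101 were measured. AT3G48080, an EDS1 copy that lies beside a closely similar second copy, rose from 4.09 and 4.40 in wild type to 6.27 and 5.60 in camta3-1 and 6.48 and 6.09 in camta3-2. Its log2 fold change was 1.87 (standard error 0.21, adjusted p = 0.00898), and signal from the second copy cannot be told apart here. SAG101, the EDS1 partner used by NRG1, had 0.46 (adjusted p = 0.363). Of 6 listed genes of the ADR1 and NRG1 families, 1 was measured, AT5G66890 of the NRG1 family, with 0.05 (adjusted p = 0.883). Its mean level of 3.97 was low on the array, below log2 5.33. Whether expression of the helper receptors changed is therefore not read from this gene. SGT1A, a co-chaperone of immune receptors and 1 measured of 11 listed folding and stability genes, had 0.70 (adjusted p = 0.0501). The 1 measured of 15 listed salicylic acid and output genes was AT5G52810 (SARD4), of the pipecolic acid pathway. It had 1.36 (adjusted p = 0.0925), which is not read as a value of a salicylic acid gene. Of 12 corepressor and nuclear transport genes, 0 were measured.

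Coiled-coil (CC) type receptors, which act mostly without EDS1, gave a second set of receptor genes for description. Of 53 listed, 25 were measured and 0 passed (limma), while 1.15% of all probe sets rose and 0.255% fell. At these shares few or none of 25 genes would pass, so nothing is read from the 0. At an unadjusted p under 0.05, 7 were higher and 0 lower, against 5.31% and 8.08% of all probe sets. Their median log2 fold change was 0.08, the same as for the TIR-domain genes at this precision. Of the 25, 14 had values above 0, against 37.4% of all probe sets. All mutant arrays were above wild type in 6 of the 25 and below it in 1, against 7.89% and 15.8% of all probe sets. The 3 with the smallest p were AT5G47250 at 0.52 (adjusted p = 0.0551), AT4G14610 at 1.01 (adjusted p = 0.0736) and AT3G14470 at 0.67 (adjusted p = 0.191). A difference between the receptor classes was not tested. The CC-type genes were also dimmer, with a median level of log2 4.25 against 4.85 for the TIR-domain genes. None of the 2 leaf photosynthesis, 5 root and 2 pollen marker genes measured passed (limma), with 1 pollen marker lower at an unadjusted p under 0.05. The leaf markers RCA and LHCB4.1 had log2 fold changes of 0.06 and 0.01 at levels of 13.91 and 13.80, the root markers ran from -0.16 to 0.20, and the pollen markers had -0.28 and 0.16.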

How the data were processed

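The authors deposited log2 expression values per probe set, 1 column per array, made with RMA and Partek per the submitters' processing notes, with no versions given there. RMA makes the distributions of arrays alike, which removes any shift shared by all transcripts. Of 22810 probe sets 64 controls were left out, and 22746 were tested with no filter on dim values. In the platform annotation 13513 probe sets had 1 gene, 503 had several and 8730 had none, and 13436 of the first kind matched a locus of the reference gene table (assembly TAIR10.1), used for names and gene order alone.

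The comparisons used limma 3.58.1 (R 4.3.3) with 1 mean per group over 6 arrays, 3 residual and 4.43 prior degrees of freedom, and Benjamini-Hochberg adjustment over all probe sets at 0.05. Precision is limited by the number of arrays: the log2 fold changes of TIR-domain genes had a median standard error of 0.12. The TIR-domain genes, the pathway and marker lists and the split into proteins with and without leucine-rich repeats were chosen with earlier results of these data known, and no curated table stood behind the lists and the split. Every measured member could be named, and full values by array are given for those that passed in any comparison or had mutant arrays all on 1 side of wild type at an unadjusted p under 0.01. In each pathway list, genes that passed or the 3 with the smallest p are named. Plots came from matplotlib 3.10.9 under Python 3.11.15. The fit was tested on simulated data.

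Alternatives tried were median centring, cyclic loess, a replicate block, leaving out probe sets with means under the 40th percentile (log2 5.33), a robust trended prior, fits of the compared groups, probe sets with 1 gene, thresholds of 0.01 and 0.1, and leaving out each array.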

Additional observations from a re-analysis of the deposited data

How the results depend on the processing

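No TIR-domain gene that passed changed sign under any alternative. Of 2089 values recomputed for single genes, 37 lost their call, all of them on leaving out 1 array, 31 gained one, and 120 that passed on neither side changed sign, the largest of them 0.43 in size. For the mean of both alleles the count of 6 was 1 at a threshold of 0.01, 8 at 0.1, 4 of the 17 genes left by the filter on dim values, and 0 to 9 without single arrays. For camta3-1 the count of 3 was 6 with a replicate block, 0 at 0.01, 5 at 0.1 and 0 to 7 without single arrays. For camta3-2 the count of 2 was 4 with a replicate block, 6 with only the groups compared, 0 at 0.01, 4 at 0.1 and 0 to 6 without single arrays. The same 6 genes passed for the mean of both alleles with the replicate block. Shares of all probe sets that passed under the alternatives are not given here. No change in the counts is therefore read as a trait of the TIR-domain genes. The correlation of replicate differences over probe sets was 0.40 between the alleles, 0.13 between camta3-2 and wild type and -0.04 between camta3-1 and wild type, so same-numbered arrays deviated together in the first cases but not in the last, and the labels tie a number to no shared batch. The arrays were therefore not treated as paired. The median log2 fold change of the measured genes above the 40th percentile of means, where 17 were left, was 0.56 for the mean of both alleles, 0.57 for camta3-1 and 0.49 for camta3-2. Of the 17, 3 have wild-type means below the filter and passed it only through their mutant arrays, so these medians give no support. Without single arrays the medians ran from 0.074 to 0.16, 0.063 to 0.15 and 0.12 to 0.22 in that order. Between the alleles the count stayed at 0 in all alternatives run. Where 1 array of a genotype was left out, the lone array was assumed to vary like the others. Of the alternatives, the fit of only the groups compared was not run for the mean of both alleles, which needs all 3 groups. The values used here carry no detection calls, so signal over background was not measured.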
